A study of Mus musculus with 6 samples.

Results

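Hspb1 encodes heat shock protein 1, the small heat shock protein known as Hsp25 in mice and Hsp27 in humans. Its mRNA was read here from 2 probe sets, 1422943_a_at and 1425964_x_at, called the _a_at and the _x_at probe set below. They were taken as members because the authors' deposited table of changed probe sets gives them, and no others, the symbol Hspb1. Probe sets outside that table had no gene name here, so a further Hspb1 probe set among them could not be recognised. They are 2 of 22626 probe sets other than controls, and 2 of the 110 probe sets in that table. The table places the gene on chromosome 5, band G2. Being listed there means that Hspb1 was chosen from the comparison of these same arrays, so its levels and differences are given as a description and without a p-value.

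The livers of 6 adult C57BL/6J mice, all wild type, were profiled on 1 Affymetrix array each, with 3 mice in the GW4064 group and 3 in the vehicle group. GW4064 activates FXR, the farnesoid X receptor, through which bile acids regulate liver genes. It was given 3 times at 100 mg per kg of body weight (8 am, 6 pm, and 8 am of the second day), with vehicle given to controls on that schedule, and tissue was harvested 2 hours after the third dose. Both groups had been fasted overnight from the second dose, per the study's methods. No other allele or agent is given for either group.

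Small heat shock proteins are chaperones that need no ATP. They assemble into large oligomers that hold unfolding proteins in solution until ATP-driven chaperones of the Hsp70 family refold them. Hspb1 is among the classic genes induced by heat and other protein stress through the transcription factor HSF1. Its product is phosphorylated by the stress kinase MAPKAPK2 and is known for its influence on the assembly of actin filaments and for protection of cells against apoptosis.

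HSF1 binds heat shock elements, which are inverted repeats of the triplet GAA, and these were looked for in the 300 bases from 250 before to 50 after the RefSeq start of the gene. The stretch that holds the matches is shown because HSF1 is the known route by which this gene responds to stress. It lies at chr5:135887801-135887830 on the plus strand of GRCm38.p6, the build of the RefSeq sequence, and the capitals mark the matches to the motif GAANNTTC.
Hspb1: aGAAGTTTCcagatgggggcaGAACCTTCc
The first match covered bases 117 to 110 before the start and the second bases 97 to 90, with 12 bases between them. Each match is a single pair of inverted triplets, and whether either serves as a heat shock element was not tested. GAANNTTC reads the same on both strands, and at least 1 match was found in 7.86% of 32851 mouse promoter windows of this length (some genes have several windows), at least 2 in 0.344%. The other orientation, TTCNNGAA, which also reads the same on both strands and can overlap the first, was absent from the Hspb1 window and present in 8.52% of windows. The inverted repeat that FXR prefers, 2 copies of AGGTCA facing each other with 1 base between them, was not in the window and was found in 0.00913% of all windows, and AGGTCA alone, searched on both strands, was not in the window and was found in 16.3%. The exact repeat was in only 3 of 32851 windows, and only these 300 bases of the gene were searched. Its absence therefore does not show that the gene lacks an FXR site. A match to letters does not show that a factor was bound, and the arrays measured no binding.

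Hspb1 mRNA was lower in each of the 3 GW4064 livers than in every vehicle liver, and the difference of the mean log2 levels left 45.7% of the vehicle level on the _a_at and 46.8% on the _x_at probe set. On the _a_at probe set the log2 levels were 9.62, 9.58 and 9.41 in vehicle replicates 1, 2 and 3, and 7.94, 8.30 and 8.97 in GW4064 replicates 1, 2 and 3. The groups did not overlap, and the highest treated mouse lay 0.44 below the lowest control. The vehicle mean was 9.54 ± 0.11 and the GW4064 mean 8.41 ± 0.52 (SD, n = 3 each). The difference was -1.13 (SE 0.23 from limma) on the log2 scale, that is 2.19-fold lower.

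On the _x_at probe set the log2 levels were 9.29, 9.14 and 8.88 in vehicle replicates 1, 2 and 3, and 7.78, 7.85 and 8.38 in GW4064 replicates 1, 2 and 3. Here too the groups did not overlap, with 0.49 between the lowest control and the highest treated mouse. The vehicle mean was 9.10 ± 0.21 and that of GW4064 8.00 ± 0.33 (SD, n = 3 each). They differed by -1.10 (SE 0.17), that is 2.14-fold lower in treated mice. In whole liver, less Hspb1 mRNA per cell and fewer cells that contain it cannot be told apart.

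**Figure D1:**
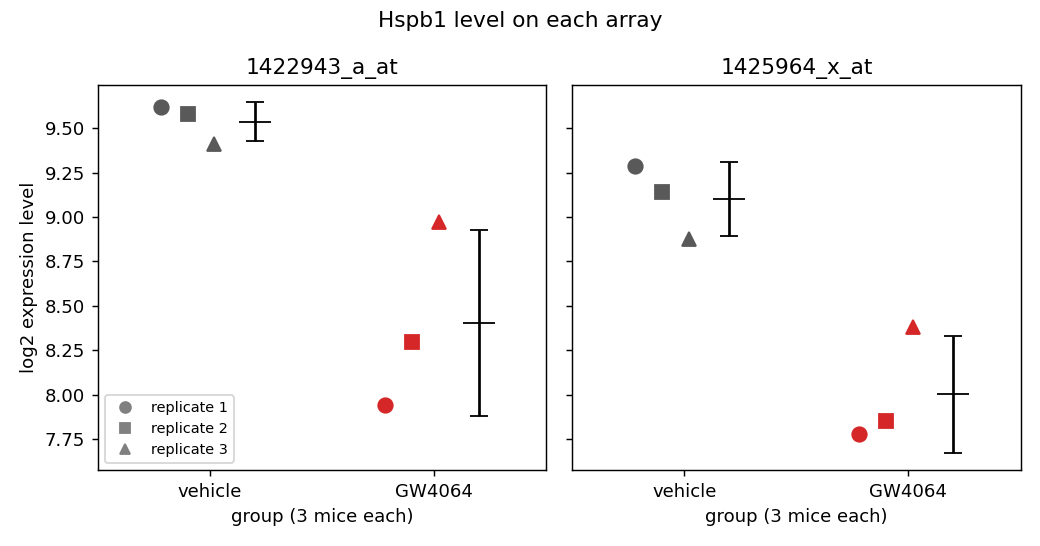
Log2 expression level of Hspb1 on each of the 6 arrays (vertical axis) by group (horizontal axis), 1 panel per probe set. Symbols are single mice, and the black bars are the group mean ± SD (n = 3). All 3 GW4064 mice lie below all 3 vehicle mice on both probe sets, and GW4064 replicate 3 lies nearest to vehicle.

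These differences stand among those of all probe sets as follows. In all, 7.16% of probe sets were lower in all 3 GW4064 than in all 3 vehicle arrays, and 0.619% were at least 1.5-fold lower with an unadjusted p under 0.05 by limma. Both Hspb1 probe sets met both criteria, which they had to in large part because the table they come from was made with a similar threshold on these arrays. At an adjusted p under 0.05, which was the threshold for calling a change, 0% of the probe sets were lower and 0% higher (0 of 22626 by limma and 0 by the methods' t-test, against 1985 and 1427 at an unadjusted p under 0.05). Hspb1 is therefore not given as changed. The median difference over all probe sets was -0.003 and 95% of differences lay between -0.38 and 0.35. Lower differences than that of the _a_at probe set were seen for 36 probe sets and than that of the _x_at probe set for 39. Among the 50 lower probe sets of the authors' table, 8 and 10 had lower differences, and the median of the 50 was -0.73. Both probe sets were well above the median level of the arrays, which was 5.87 to 5.89, so neither was dim.

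**Figure D2:**
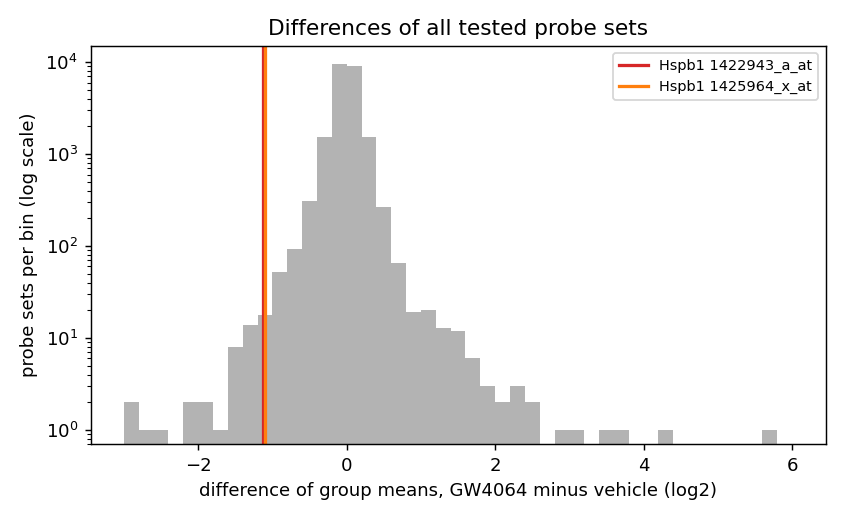
Histogram of the difference of group means, GW4064 minus vehicle on the log2 scale (horizontal axis), over all 22626 tested probe sets, with the number of probe sets per bin on a log scale (vertical axis). Vertical lines mark the Hspb1 probe sets at -1.13 and -1.10, outside the range from -0.38 to 0.35 that holds 95% of the probe sets.

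The probe sets of Hspb1 were then compared with each other. Both read the same RNA on the same arrays and are no replicates, but they differ in design. The suffix _a_at marks probes shared by several transcripts of 1 gene, and _x_at marks probes that may also detect transcripts of other genes, so the values of the _x_at probe set are less certain. The level of the _a_at probe set minus that of the _x_at probe set was 0.33, 0.44 and 0.54 in vehicle replicates 1, 2 and 3, and 0.17, 0.45 and 0.59 in GW4064 replicates 1, 2 and 3. This gap was 0.43 ± 0.10 in vehicle and 0.40 ± 0.22 in GW4064 livers (SD, n = 3 each), so the probe sets gave group differences that were only 0.03 apart, less than the spread of the gap between mice. The widest departure was in GW4064 replicate 1, where the gap was smallest. Over the 6 arrays the log2 levels of the probe sets had a Pearson correlation of 0.978, and after subtraction of the group means it was 0.912 over the same 6 arrays.

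Of the 87 genes paired with a probe set in the authors' table, 11 had more than 1 probe set there, and they served as a yardstick. The differences of the Hspb1 probe sets were 0.03 apart. In the other 10 genes the lowest and the highest difference were between 0.01 and 0.42 apart, with a median of 0.24. Only Sult1d1, a sulfotransferase gene, had a smaller spread than Hspb1. These genes entered the table by their differences on these arrays, so close probe sets were in part selected, and no test was made.

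The size of the change differed between the treated mice. Relative to the vehicle mean, the _a_at probe set was at -1.59 in GW4064 replicate 1, -1.24 in replicate 2 and -0.56 in replicate 3. As a share of the vehicle mean, this left 33.2%, 42.5% and 67.7%, and replicate 3 was 1.48-fold lower where replicates 1 and 2 were 3.01-fold and 2.35-fold lower. On the _x_at probe set the same mice were at -1.32, -1.25 and -0.72, which left 40.0%, 42.1% and 60.7%. Vehicle mice deviated from their own mean by -0.12 to 0.08 on the former and by -0.22 to 0.19 on the latter probe set.

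GW4064 replicate 3 thus had the smallest change on both probe sets, and it lay 0.67 and 0.53 above replicate 2, more than the whole range of the vehicle mice (0.20 and 0.41). Replicate 1 had the largest change on both. It lay 0.36 below replicate 2 on the _a_at probe set, which was more than the vehicle range, but only 0.075 below it on the _x_at probe set, which was less. The largest change was 2.82 times the smallest on the log2 scale by the _a_at probe set and 1.84 times by the _x_at probe set. With 3 mice in a group these comparisons are set against the spread of the controls and were not tested.

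**Figure D3:**
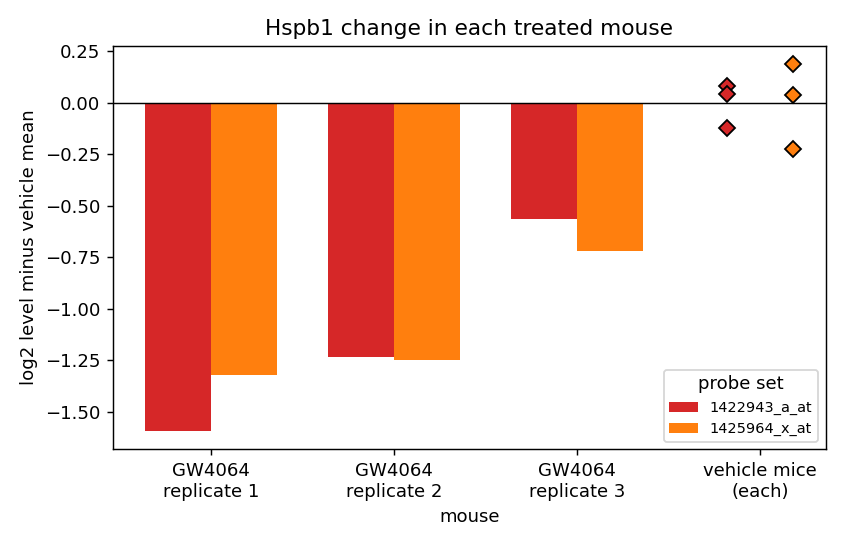
Log2 level of Hspb1 minus the mean of the vehicle mice (vertical axis) in each GW4064 mouse (bars) and in each vehicle mouse (diamonds), by probe set (colour). The bars of GW4064 replicate 3 are the shortest, at -0.56 and -0.72, and those of replicates 1 and 2 differ by 0.36 on the _a_at probe set and by 0.075 on the _x_at probe set.

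The spread of Hspb1 was wider in treated than in control mice, with a range of 1.03 against 0.20 on the _a_at probe set and of 0.60 against 0.41 on the _x_at probe set. Among the other 48 lower probe sets of the table, the SD had a median of 0.30 in treated and 0.23 in control mice, against 0.11 in each group over all tested probe sets. The SD of the _a_at probe set in GW4064 livers (0.52) was larger than that of 39 of the 48, and its SD in vehicle livers (0.11) was larger than that of 10. For the _x_at probe set these counts were 30 and 20 of the 48. On the _a_at probe set the vehicle SD of Hspb1 was thus like the median of all tested probe sets, and its SD in treated mice was wider. On the _x_at probe set the SDs lay closer together, at 0.21 in vehicle and 0.33 in GW4064 livers. The 48 were listed by a test that sets a difference against its spread, so their SDs were in part selected.

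The pattern over treated mice was shared by much of the table. Of the other 48 lower probe sets, 30 were also farthest from vehicle in GW4064 replicate 1 and nearest in replicate 3. Over all probe sets lower without overlap the same held for 534 of 1620 or 33.0%. The median changes of the 48 were -0.92, -0.68 and -0.55 in replicates 1, 2 and 3. Hspb1 by the _a_at probe set was thus beyond the median in replicates 1 and 2 and close to it in replicate 3. By the _x_at probe set it was beyond the median in each of these mice, at -1.32, -1.25 and -0.72. As whole profiles the treated arrays also differed. On the first principal component, which held 48.3% of the variance, vehicle arrays were at -15.1 to -13.9 and GW4064 replicates 1, 2 and 3 at 36.8, 12.5 and -5.73, the same order as for Hspb1. The mean correlation of a vehicle array with the other vehicle arrays was 0.9946 to 0.9948. That of GW4064 replicates 1, 2 and 3 with the vehicle arrays was 0.9868, 0.9927 and 0.9950. By this measure replicate 3 was as close to the vehicle arrays as they were to each other, and replicate 1 was farthest. The part of this whole-array difference in the Hspb1 values was not tested. The 3′ minus 5′ log2 signal of beta-actin, a sign of RNA integrity, was 0.97 to 1.00 in GW4064 and 0.92 to 1.02 in vehicle livers, and that of Gapdh was -0.08 to 0.03 and -0.08 to 0.01, so these did not part the groups.

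Leaving out 1 mouse at a time kept Hspb1 between 1.87-fold and 2.66-fold lower on the _a_at probe set and between 1.98-fold and 2.44-fold lower on the _x_at probe set. The lowest of these folds were without GW4064 replicate 1 and the highest without GW4064 replicate 3.

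Genes whose levels went with those of Hspb1 were sought among the 86 other genes paired with a probe set, each by its brightest probe set, using the Pearson correlation with the _a_at probe set over the 6 arrays. Because all of them entered the table for a difference between the same groups, high correlations in both directions are built in, and they are given as a description. The 5 genes most like Hspb1 were Epb41l2 (r = 0.993), Elk3 (0.984), Cyp4a12a (0.981), Cyp8b1 (0.977) and Elovl3 (0.976). Spearman's rho of these 5 genes was 0.943, 0.943, 0.829, 1 and 0.943. After subtraction of the group means their correlations with Hspb1 were 0.891 to 0.976. The 5 genes were picked by their correlation over these same 6 arrays, so these values were in part selected too. The order of the treated mice in Hspb1 was also that of 30 of the other 48 lower probe sets.

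The gene most like it, Epb41l2, encodes a protein of the membrane skeleton that links the cell membrane to actin and spectrin. Its log2 levels were 6.89, 6.99 and 6.84 in vehicle and 5.95, 6.16 and 6.49 in GW4064 replicates 1, 2 and 3, without overlap. Its difference was -0.70 (SE 0.14) or 1.63-fold lower, and its identifier (_s_at) marks probes that may detect other genes. Elk3, which encodes an ETS transcription factor, was dim, with a vehicle mean of 5.33 ± 0.08 and a GW4064 mean of 4.64 ± 0.40 (difference -0.69, SE 0.18).

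The other 3 of these genes act in lipid metabolism. Cyp8b1, the hydroxylase gene of cholic acid synthesis, had changes of -3.76, -2.08 and -1.42 in GW4064 replicates 1, 2 and 3. Elovl3, a fatty acid elongase gene, had changes of -2.58, -1.74 and -1.10. Cyp4a12a, a fatty acid hydroxylase gene, had changes of -0.90, -0.61 and -0.40. In each of the 3 genes, as in Hspb1, replicate 3 was nearest to vehicle.

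The 4 genes whose levels ran most opposite to Hspb1 were higher in every GW4064 than in every vehicle liver, as were 6.7% of all probe sets. Ctsc (r = -0.998), which encodes the lysosomal protease cathepsin C, had log2 levels of 10.38, 10.50 and 10.56 in vehicle replicates 1, 2 and 3 and of 11.89, 11.65 and 10.95 in the GW4064 replicates. It was 2.03-fold higher (log2 difference 1.02, SE 0.21). Derl3 (r = -0.995), which encodes a protein that helps to move misfolded proteins out of the endoplasmic reticulum, had a level of 6.82 in each of the 3 vehicle livers and of 8.28, 7.97 and 7.37 in GW4064 replicates 1, 2 and 3. It was 2.08-fold higher (log2 difference 1.05, SE 0.20). Nfkbiz (r = -0.994), a regulator of NF-kappaB target genes, and Cp (r = -0.992), the acute phase gene of ceruloplasmin, were 2.30-fold higher (SE 0.22 on the log2 scale) and 1.64-fold higher (SE 0.19). For all 4 genes Spearman's rho was -1, so the treated mouse with the lowest Hspb1 had the highest level of each. By limma, 0 of these 9 genes had an adjusted p under 0.05.

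**Figure D4:**
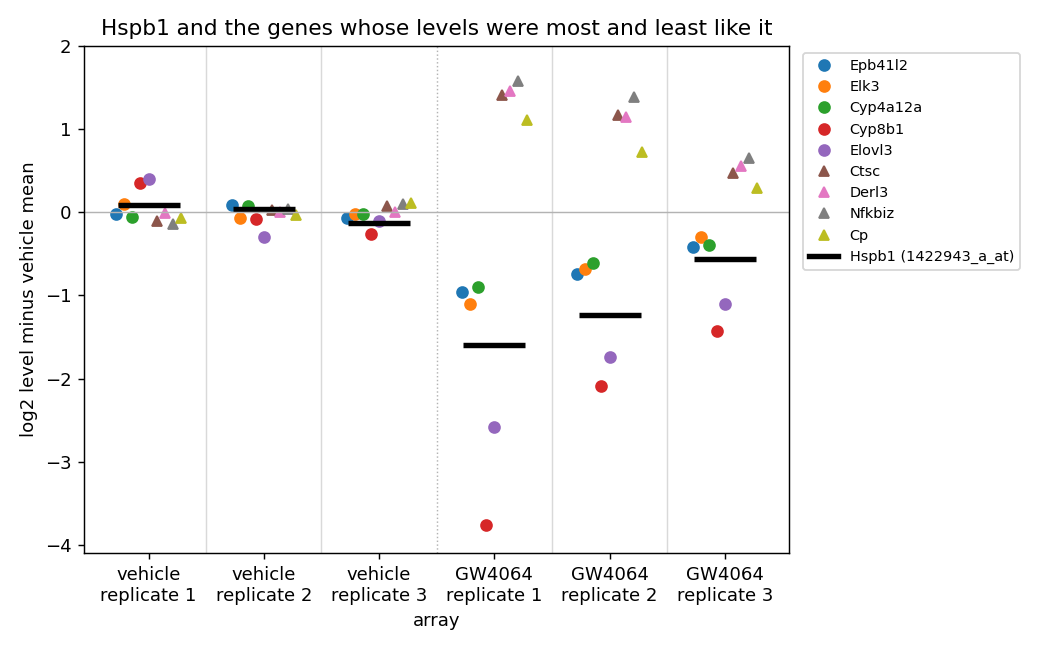
Log2 level minus the vehicle mean (vertical axis) on each array (horizontal axis) for Hspb1 by the _a_at probe set (black bars), for the 5 genes most like it (circles) and for the 4 most opposite (triangles). Of the GW4064 arrays, replicate 3 is nearest to the vehicle level for Hspb1 and for each of the 9 genes.

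Counted over all 22626 probe sets, most without a gene name here, 144 others (0.636%) had a correlation of at least 0.95 with the _a_at probe set and 147 (0.65%) had one of at most -0.95. The second Hspb1 probe set, at 0.978, was exceeded by 30 probe sets. The likeness of a named gene is thus not particular to it, and the closeness of a gene to Hspb1 can be greater than that of the second Hspb1 probe set.

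Genes of the heat shock response and of Hspb1 function were looked up in 8 lists with 121 genes. Only 4 of these genes had a paired probe set, Hspb1 included. Derl3, named above for its role in moving misfolded proteins out of the endoplasmic reticulum, was on none of the lists. A probe set is paired only where the authors listed it, so a gene without one was not analysed here, and nothing follows about its level. Of 11 small heat shock protein genes, 1 was paired, Hspb1 itself, and it was lower at 1.5-fold and unadjusted p under 0.05. Of 32 HSF1 factors, targets and cytosolic chaperones, 8 mitochondrial chaperones, 20 genes of endoplasmic reticulum chaperones and the unfolded protein response, 19 kinases and actin partners of Hspb1, and 15 antioxidant genes, 0 were paired.

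Of 6 immunophilin cochaperones of Hsp90, 1 was paired. This was Fkbp5, a cochaperone of the glucocorticoid receptor, with log2 levels of 7.91, 7.93 and 8.56 in vehicle replicates 1, 2 and 3 and of 10.27, 9.72 and 9.07 in the GW4064 replicates. It went the opposite way to Hspb1, 2.94-fold higher (log2 difference 1.55, SE 0.30), with a correlation of -0.985 with Hspb1 over the 6 arrays. Of 11 apoptosis regulators, 2 were paired, the death-promoting Bcl2l11, lower by 1.49-fold (log2 difference -0.58, SE 0.16), and the protective Bcl2l1, higher by 1.70-fold (0.76, SE 0.18). Bcl2l1 was dim in vehicle livers, with a vehicle mean of 5.15 ± 0.39 and a GW4064 mean of 5.91 ± 0.07. Both genes were less like Hspb1 over the arrays, with correlations of 0.870 for Bcl2l11 and -0.835 for Bcl2l1. After subtraction of the group means these were 0.561 and -0.336. Of these 4 paired genes in all, 2 were higher and 1 was lower at 1.5-fold and unadjusted p under 0.05, Bcl2l11 falling short of the fold, and 0 passed the adjusted threshold. At that fold and unadjusted p, 0.632% of all probe sets were higher and 0.619% lower. A gene was paired only where the authors' table lists it for passing a similar threshold on the same arrays, so the counts were largely fixed by that choice and nothing is read from them.

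The labelled tissue could not be checked on markers, since 0 of 33 marker genes of hepatocytes and 6 other liver cell types had a paired probe set. Among those types is smooth muscle, which is known to contain much Hspb1 protein.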

How the data were processed

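Mice were assigned to groups by their sample titles. The deposited values are log2 expression levels per probe set, normalized between arrays by the authors with Affymetrix software; how probe sets were summarised and annotated is not given in the sources used here. Labels and methods name the Mouse Gene 1.0 ST array, while the identifiers in both files, and a header line, belong to Mouse430A_2. That table holds the authors' fold, a ratio deposited with its direction, for 110 probe sets. These passed the authors' threshold (1.5-fold, p up to 0.05, unpaired test). Its folds were not used, only its gene names and identifiers, the direction of each change (higher or lower) and the chromosomal locations. Of the 110, 99 had 1 symbol (all matched in RefSeq of GRCm38.p6, 10 updated), 7 several and 4 none, giving 87 genes. Promoter sequence is from RefSeq.

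The groups were compared with limma (version 3.58.1, R 4.3.3; lmFit, eBayes, two-sided, no covariate) over 22626 probe sets, leaving out 64 controls, with Benjamini-Hochberg adjustment and no filter on dim probe sets. The script was tested on simulated data. With 3 mice per group, exact permutation reaches no two-sided p below 0.1. Array number limits the precision. The members, the gene lists and the rule for named genes (Hspb1, the 6 most and 4 least correlated genes, and paired members of the lists) were chosen with earlier results of these data known; 1 of the 6 is not reported here. Alternatives were the methods' t-test, 2 other normalizations, a filter on dim probe sets, a replicate block, array weights, another prior, other baselines and the omission of each array.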

Additional observations from a re-analysis of the deposited data

How the results depend on the processing

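Since the groups of Hspb1 do not overlap, leaving out arrays could not have reversed its direction. The difference of the _a_at probe set was -1.41 to -0.90 without 1 array and -1.28 to -1.07 otherwise, and that of the _x_at probe set -1.29 to -0.98 and -1.29 to -1.08. With the replicate block the differences were -1.13 and -1.10; in this balanced design a block cannot change a difference of group means, nor can the methods' t-test, the filter on dim probe sets or another prior. The sample titles number mice within a group and name no pairing, and over probe sets the deviations of same-numbered mice from their group means correlated at -0.002, 0.05 and -0.03 (2 of 6 arrays correlated best with their own number). The difference between the changes of the probe sets was -0.13 to 0.08 without 1 array, on both sides of 0. Of the 9 genes named for likeness, 6 to 7 remained when 1 array was left out, 8 by Spearman (with ties, 24 genes were taken) and 8 after renewed quantile normalization. At an adjusted p under 0.05, 0 probe sets were called in each alternative with 6 arrays, the replicate block included, and 0 to 70 without 1 array, highest without GW4064 replicate 3 (43 higher, 27 lower). Those at 1.5-fold and an unadjusted p under 0.05 numbered 283, against 97 by the methods' t-test, 304 with the replicate block, and 158 to 573 without 1 array (lowest without GW4064 replicate 1, highest without replicate 3); the cause was not tested.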
